A study of Mus musculus with 3 samples.

Results

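Promoter methylation of 10 genes that act in germ cells was followed in 3 bisulfite libraries from mouse embryonic stem (ES) cells, a cell type that is not of the germ line. The genes were Dazl, Ddx4, Sycp1, Sycp3, Mael, Stk31, Slc25a31, Hormad1, Tex101 and Ctcfl. They were chosen by name, with earlier results of these data known, from the 22367 protein-coding genes of the GENCODE vM1 annotation of mm9. A promoter was the stretch from 1000 bp before to 1000 bp after the transcription start site (TSS), taken as the 5′ end of the gene record. Each CpG has a count of all observations and a count of methylated ones, and a promoter's methylation is its summed methylated observations as a percentage of all its observations.

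The whole-genome bisulfite library (WG-BisSeq) came from REST knockout ES cells of the Black Agouti 129 strain, which lack the transcription factor REST, and was sequenced without replicate. The 2 CTCF ChIP-BisSeq libraries, in which DNA pulled down with an antibody to the zinc finger protein CTCF was bisulfite sequenced, came from wild type ES cells of mixed 129-C57Bl/6 background, and each pooled the DNA of several immunoprecipitations. All cells grew in medium with 15% foetal calf serum and LIF, on feeder cells or gelatine. Genotype, strain and assay therefore differ together between WG-BisSeq and ChIP-BisSeq and cannot be told apart, and wild type WG-BisSeq was not analysed here.

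Genes of meiosis and gamete formation are silent in most somatic tissues. Many carry a promoter with intermediate or high CpG density that receives DNA methylation when the embryo implants, whereas most CpG-rich promoters stay free of it. In ES cells some of these genes are also held silent by a Polycomb-like complex whose MGA and MAX subunits recognise the E-box hexamer CACGTG and whose E2F6 subunit recognises GCGGGAA. These statements are background and were not measured here.

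The libraries held 273375318 observations for REST knockout and 13411280 and 25262179 for replicates 1 and 2 of ChIP-BisSeq. In the REST knockout library the most covered CpGs, those above 96 observations, held 38.6% of all observations. In the targeted gene Rest, a run of 123 neighbouring CpGs at chr5:77695242-77697727 that overlaps 2 of its exons had 0 observations in REST knockout, against 88 and 381 in ChIP-BisSeq. Promoters of the pluripotency genes Pou5f1 and Sox2 were methylated at 4.11% and 2.71% in REST knockout, that of Nanog at 22.7%, those of the housekeeping genes Actb and Gapdh at 5.18% and 18.9%, and that of Rest at 2.88%. No expression was measured, so that the cell type could not be checked against marker transcripts.

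Sequences just before the TSS are given first for the 6 genes with a CACGTG within 150 bp of it, and for Tex101, the most methylated of the 10, which holds neither hexamer nor E2F word. They were read from the mm9 genome on the strand of the gene, 5′ to 3′, and run from position −150 to −1. Capitals mark CACGTG and GCGGGAA or its reverse complement TTCCCGC.
Ddx4 (chr13:113442519-113442668, minus strand): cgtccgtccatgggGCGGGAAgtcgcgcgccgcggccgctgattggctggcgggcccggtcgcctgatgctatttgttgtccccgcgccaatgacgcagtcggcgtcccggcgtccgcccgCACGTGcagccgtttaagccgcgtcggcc
Sycp3 (chr10:87922164-87922313, plus strand): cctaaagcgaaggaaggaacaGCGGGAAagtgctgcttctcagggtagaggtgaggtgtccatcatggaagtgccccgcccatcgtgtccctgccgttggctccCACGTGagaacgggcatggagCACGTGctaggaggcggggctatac
Hormad1 (chr3:95363449-95363598, plus strand): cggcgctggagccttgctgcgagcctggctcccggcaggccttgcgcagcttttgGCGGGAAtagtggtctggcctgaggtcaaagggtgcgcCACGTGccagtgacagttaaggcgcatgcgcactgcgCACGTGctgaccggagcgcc
Slc25a31 (chr3:40512627-40512776, plus strand): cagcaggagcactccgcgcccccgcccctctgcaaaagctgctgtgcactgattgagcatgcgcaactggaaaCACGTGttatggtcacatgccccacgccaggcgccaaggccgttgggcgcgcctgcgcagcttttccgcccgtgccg
Stk31 (chr6:49345453-49345602, plus strand): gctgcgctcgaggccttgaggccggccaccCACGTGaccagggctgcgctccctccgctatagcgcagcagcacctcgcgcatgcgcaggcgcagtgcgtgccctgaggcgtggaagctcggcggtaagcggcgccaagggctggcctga
Sycp1 (chr3:102740024-102740173, minus strand): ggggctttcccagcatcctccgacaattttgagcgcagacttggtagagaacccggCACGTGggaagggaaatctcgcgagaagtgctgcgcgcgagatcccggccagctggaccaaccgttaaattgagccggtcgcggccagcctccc
Tex101 (chr7:25457070-25457219, minus strand): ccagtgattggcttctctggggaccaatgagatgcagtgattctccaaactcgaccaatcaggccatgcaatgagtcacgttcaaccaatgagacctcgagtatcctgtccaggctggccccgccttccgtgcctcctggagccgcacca
These stretches hold between 6 CpGs, in Tex101, and 26, in Ddx4, and none overlaps an annotated exon. In Ddx4, Sycp3 and Hormad1 the E2F word precedes CACGTG.

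All 10 promoters were more methylated in REST knockout ES cells than the median promoter of their class of CpG number. Their methylation ranged from 22.8% at Ddx4 to 83.5% at Tex101, with a median of 41.7%, against a median of 11.8% over the 21165 protein-coding promoters with at least 10 observations. Of the 10, 0 were under 20%, 7 lay between 20 and 50%, 2 between 50 and 80% and 1 above 80%. Of all promoters, 58.4% were under 20%. At or above 50% lay 3 of the 10 genes (30%) and a like share of all promoters, 31.15%. With 40 to 79 CpGs this share was 10.2%, and with 80 or more 0.169%. The values of the 10 genes are positions in 1 library with no replicate, of genes listed with earlier results of these data known. The intervals given below are exact 95% Clopper-Pearson intervals. They cover counting error only, with each CpG of a read taken as an independent observation.

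The RNA-binding proteins Dazl and Ddx4 are needed for germ cell development, and their promoters are rich in CpGs. At Dazl (chr17:50431924-50433924, minus strand, 141 CpGs) 1464 of 3016 observations were methylated in REST knockout, or 48.5% (46.7 to 50.3%). At Ddx4 (chr13:113441518-113443518, minus strand, 91 CpGs) 392 of 1723 were methylated, or 22.8% (20.8 to 24.8%). Promoters with 80 or more CpGs had a median of 5.14%, and Dazl and Ddx4 lay at the 99.8th and 99.1st percentile of that class.

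Sycp1, Sycp3 and Hormad1 encode proteins of the meiotic chromosome axis and synaptonemal complex. Sycp1 (chr3:102739023-102741023, minus strand, 101 CpGs) was methylated at 38.8% (36.8 to 40.7%), 950 of 2451 observations, which put it at the 99.7th percentile of promoters with 80 or more CpGs. Sycp3 (chr10:87921314-87923314, plus strand, 66 CpGs) reached 33.4% (31.9 to 35.0%) from 3672 observations, and Hormad1 (chr3:95362599-95364599, plus strand, 58 CpGs) 44.6% (41.3 to 47.9%) from 902. Sycp3 and Hormad1 fall in the class of 40 to 79 CpGs, whose median was 11.5%, and lay at its 83.9th and 88.5th percentile.

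Mael acts in the silencing of transposons by piRNAs, Stk31 is a testis kinase with a Tudor domain and Slc25a31 is the ADP/ATP carrier of spermatogenic cells. Mael (chr1:168167875-168169875, minus strand, 75 CpGs) was methylated at 37.8% (35.0 to 40.7%), 435 of 1150 observations. Stk31 (chr6:49344603-49346603, plus strand, 67 CpGs) was at 30.3% (27.9 to 32.6%), 456 of 1507. Slc25a31 (chr3:40511777-40513777, plus strand, 73 CpGs) was at 58.0% (55.2 to 60.7%), 743 of 1282. In the class of 40 to 79 CpGs they took the 86.1st, 82.1st and 91.7th percentile.

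The highest values belonged to Tex101, a surface protein of germ cells, and Ctcfl, the testis paralog of CTCF also known as BORIS. Tex101 (chr7:25456069-25458069, minus strand, 44 CpGs) had 1024 of 1226 observations methylated, 83.5% (81.3 to 85.6%), and stood at the 99.4th percentile of its class of 40 to 79 CpGs. Ctcfl (chr2:172944026-172946026, minus strand, 56 CpGs) had 1972 of 2628, 75.04% (73.3 to 76.7%), at the 96.8th percentile. In Ctcfl 11 CpGs were covered over 96 times and held 1269 observations, and without them the value was 70.9%. The upstream part of the window overlaps the antisense gene 1300015D01Rik, which starts 213 bp before the Ctcfl TSS.

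Across the 10 genes, those with fewer CpGs tended to be more methylated, with Pearson's r = −0.39 and Spearman's rho = −0.43 (n = 10 promoters of 1 library). The ratio of observed to expected CpGs, which corrects for base composition, gave r = −0.72 and rho = −0.42. Dazl had the most CpGs of the 10 and the fourth highest methylation. In the plot of methylation against CpG number the 10 genes lie in the upper part of the range for their number of CpGs.

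**Figure D1:**
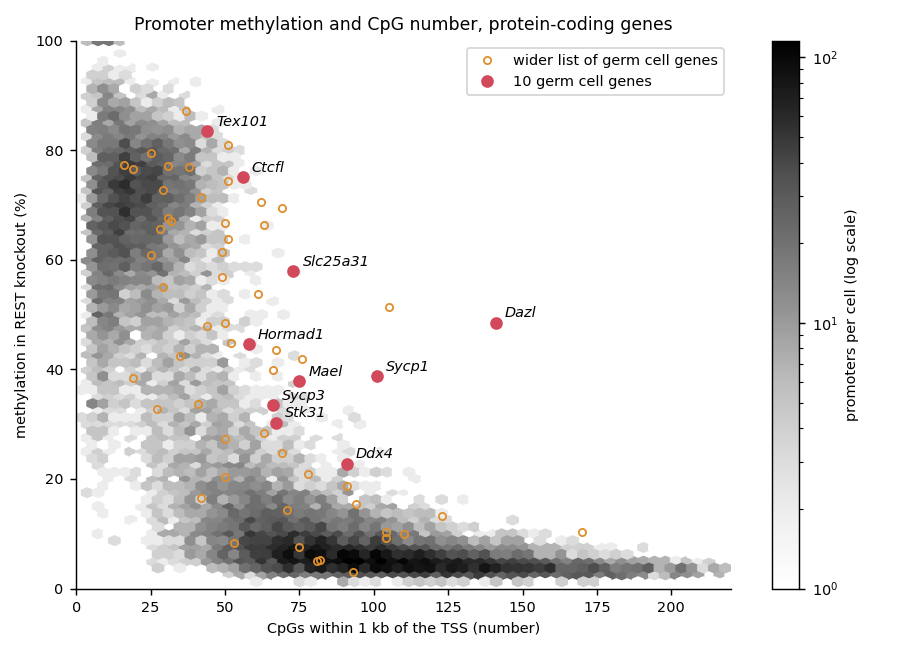
Methylation of each protein-coding promoter in REST knockout (percent, y axis) against the number of CpGs within 1 kb of the TSS (x axis), with grey cells shaded by promoter count on a log scale, the 10 germ cell genes as filled red points and the wider list as open circles. Dazl, at 141 CpGs and 48.5%, stands far above promoters of like CpG number, whose class median is 5.14%.

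A wider list of 57 germ cell genes in 4 groups gave 55 annotated promoters, and 53 had at least 10 observations in REST knockout. Their median methylation was 44.8%. At or above 50% lay 24 (45.3%), against 31.15% of all promoters, and 14 (26.4%) were under 20%, against 58.4%. Unlike the 10 genes, the wider list thus included promoters without much methylation. Split by CpG number, the 27 with 40 to 79 CpGs had a median of 44.8%, against 11.5% for all promoters of that class, and the 11 with 80 or more had a median of 10.3%, against 5.14%.

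Among 13 genes of the piRNA pathway the median was 48.4%, from Tdrd9 (76.9%) and Gtsf1 (67.7%) down to Pld6 (7.54%) and Exd1 (3.07%). Among 15 genes of meiotic chromosomes the median was 24.8%, with Syce3 (74.5%) and Hormad2 (56.9%) highest and Prdm9 (5.29%) and Dmc1 (5.00%) lowest. The 14 germ cell regulators had a median of 43.9%, from Sohlh1 (81.0%) and Figla (70.5%) to Boll (10.3%) and Tex14 (9.15%). The 11 products of late gametes had a median of 72.7%, and all 12 annotated promoters of that group a median of 30 CpGs. In that group Tnp1 (87.1%) and Zp2 (79.4%) were highest and Tnp2 (42.4%) and Zp3 (16.6%) lowest. Dmc1, which repairs meiotic breaks, and Sycp1 thus differ widely in methylation although their windows hold 81 and 101 CpGs.

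Within the promoters methylation was seldom all or none. Among CpGs with a coverage of at least 10, the share between 20 and 80% was 92.0% at Hormad1, 87.7% at Sycp3, 83.3% at Mael and 81.6% at Sycp1. It was 31.6% at Tex101, where 38 CpGs ranged only from 66.7 to 97.4% and 26 exceeded 80%. At Ddx4 37 of 70 CpGs were under 20% and 0 above 80%, and the median CpG was at 18.8%. At Dazl 47 of 119 CpGs were under 20% and 20 above 80%, the widest spread of the 10 (SD 33.2 points over CpGs).

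**Figure D2:**
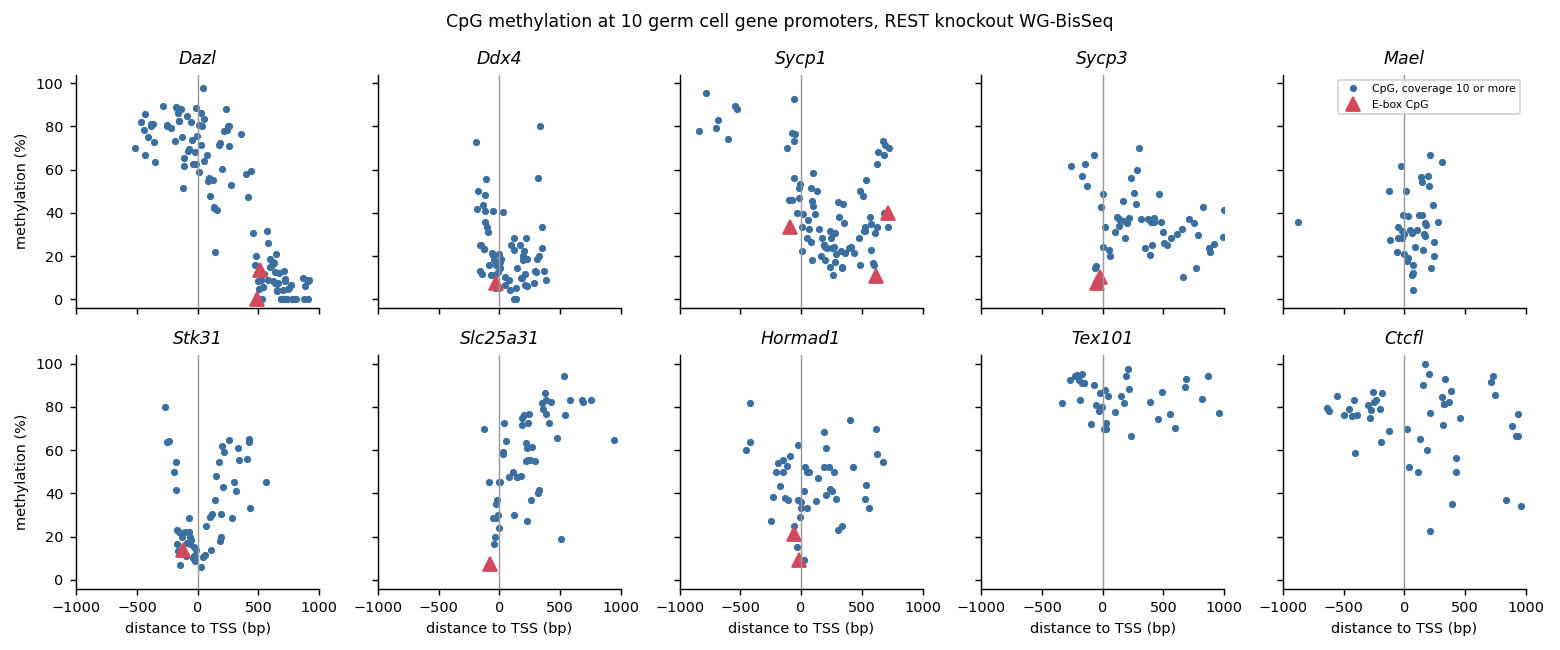
Methylation of single CpGs (percent, y axis) in REST knockout against distance to the TSS (bp, x axis) at the 10 promoters, for CpGs with a coverage of at least 10, with red triangles for CpGs inside an E-box. Ddx4 and Stk31 dip near the TSS, Dazl drops past 400 bp downstream, and Tex101 stays between 66.7 and 97.4%.

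Methylation near the TSS was compared with the outer window, as the core within 200 bp and the flanks from 500 to 1000 bp on both sides. Fisher's exact test, two-sided, was adjusted over 18065 promoters, and a call needed an adjusted p under 0.05 and 20 percentage points. The core was lower at 4 of the 10 genes and higher at 1. Over all promoters 24.9% had a lower and 4.52% a higher core, and in the class of 40 to 79 CpGs 44.7% had a lower and 5.48% a higher core, while with 80 or more CpGs 15.3% had a lower and 1.49% a higher one. A share of 4 in 10 is thus near the background of their CpG classes.

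At Ddx4 the core was methylated at 20.5% (1398 observations) and the flanks at 88.9% (36 observations; Fisher's exact test, adjusted p = 5.28e-17). At Stk31 the values were 22.4 and 57.7% (26 flank observations; Fisher's exact test, adjusted p = 0.000285), at Mael 33.2 and 57.1% (adjusted p = 0.000384) and at Slc25a31 45.6 and 71.8% (adjusted p = 5.89e-09). These p-values carry Benjamini-Hochberg adjustment. Dazl alone was higher in the core, 70.5 against 12.2% (Fisher's exact test, adjusted p = 5.69e-190).

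At the other 5 genes no call was made. Sycp1 had 39.8% in the core and 53.4% in the flanks, Sycp3 32.9 and 28.7%, Hormad1 40.6 and 50.5%, Tex101 84.1 and 82.5%, and Ctcfl 71.6 and 71.9%. Sycp1 split instead by side, with 67.6% methylation before the TSS and 31.9% after it. Slc25a31 had 40.5% before and 62.7% after, and Stk31 22.5% before and 36.3% after. Coverage was uneven as well. Sycp3 had 19.8 observations per CpG before and 72.4 after the TSS, and Ctcfl 84.0 before and 23.0 after. The part of coverage in these values was not tested.

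Dazl has a second annotated start, that of transcript Dazl-202 at position 50432217, which lies 707 bp downstream of the first on chromosome 17. Within 200 bp of the first start 70.5% of 1328 observations were methylated in REST knockout (67.9 to 72.9%). Within 200 bp of the second start 84 of 946 were, or 8.88% (7.14 to 10.9%). Between the starts methylation changed sharply, from 71.9% in the stretch from 1000 bp before to 400 bp after the first start to 11.3% from 400 to 1000 bp after it. Just past that change lie 2 CACGTG hexamers and a TTCCCGC within 61 bases, shown here for that position from +480 to +540, in an intron by the annotation.
Dazl (chr17:50432384-50432444, minus strand): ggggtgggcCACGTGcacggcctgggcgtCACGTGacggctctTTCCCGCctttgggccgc
The CpGs of these 3 words were methylated in 0 of 29, 3 of 22 and 0 of 16 observations, with exact intervals that reach 11.9, 34.9 and 20.6%.

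ChIP-BisSeq gave a like picture of Dazl. In the stretch from 1000 bp before to 400 bp after the first start, 30 of 30 observations of replicate 1 and 136 of 148 of replicate 2 (91.9%) were methylated. From 400 to 1000 bp after it, 42 of 796 (5.28%) and 122 of 1062 (11.5%) were. The latter stretch held 96.4% and 87.8% of the observations of the Dazl window in the replicates, against 38.5% in REST knockout. Around the second start coverage per CpG was 25.4 and 17.7 times the library mean in the replicates and 1.54 times in REST knockout, which lies at the 96.8th percentile of promoter cores in both replicates. An exact match to the CTCF consensus was found in 0 of the 10 windows, against 4.74% of all.

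**Figure D3:**
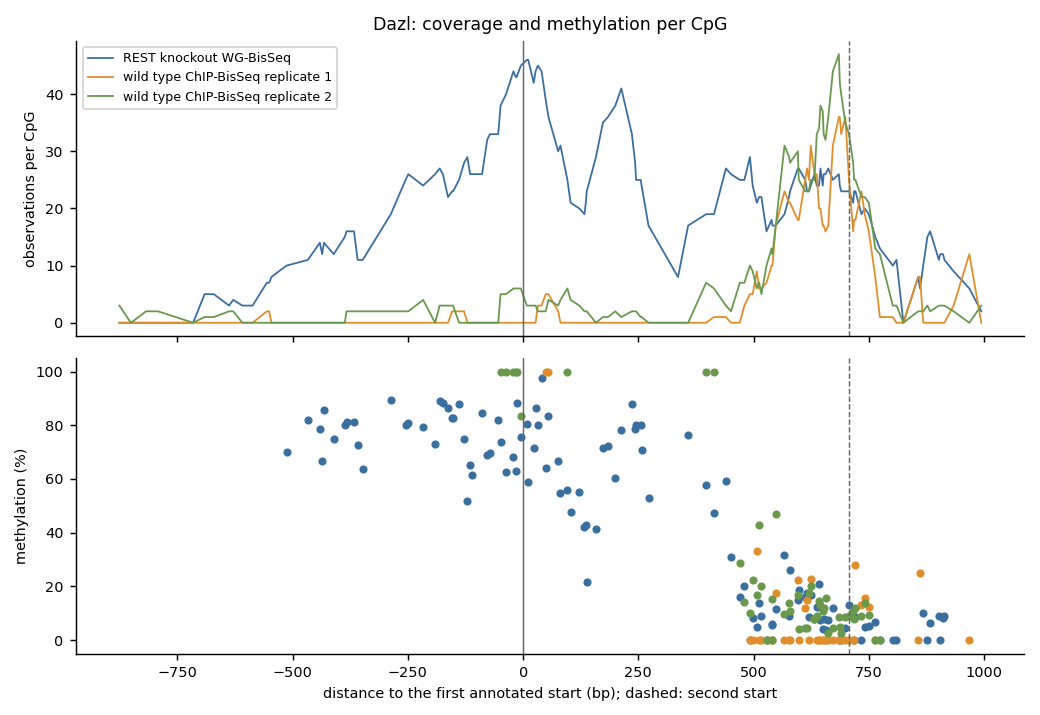
Observations per CpG (upper panel) and methylation in percent (lower panel, CpGs with at least 10 observations in REST knockout or 5 in ChIP-BisSeq) along the Dazl window, against distance to the first annotated start (bp). In all 3 libraries methylation is high before 400 bp and low after it, and ChIP-BisSeq coverage peaks by the second start, drawn as a dashed line.

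The other promoters were thinly covered in ChIP-BisSeq. The median coverage per CpG of the 10 was 0.446 and 1.06 times the library mean in replicates 1 and 2. Ctcfl followed Dazl with 2.93 and 6.44 times, but its REST knockout coverage was 3.66 times the mean of that library. Of the other 8 genes, replicate 1 held from 11 observations at Tex101 to 43 at Mael, and replicate 2 from 16 at Tex101 to 139 at Stk31. No input library was analysed here, so that coverage is a description and not an enrichment.

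Methylation in the thinly covered promoters was as follows. Ddx4 was at 38.5 and 20.0% in replicates 1 and 2, Stk31 at 46.2 and 22.3%, and Sycp1 at 69.7 and 36.3%. Sycp3 was at 46.7 and 56.0%, Mael at 62.8 and 47.1%, and Hormad1 at 66.7 and 54.8%. Replicate 1 was the higher in 5 of these 6 genes. Slc25a31 was at 91.7 and 72.9%, Tex101 at 100 and 68.8%, and Ctcfl at 83.5 and 69.8%, so that these were again the 3 most methylated genes in both replicates. The replicates differed by Fisher's exact test at Dazl (adjusted p = 3.50e-12), Sycp1 (adjusted p = 0.00663) and Ctcfl (adjusted p = 0.0270), a share of 3 of 10 where 21.4% of 15132 promoters differed.

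REST knockout was set against ChIP-BisSeq with the demand that both replicates differ from it by at least 20 points in the same direction, each with an adjusted p under 0.05 by Fisher's exact test. Of the 10 genes 1 was called higher in REST knockout and 0 lower, where 1.32% of 15127 promoters were called higher and 1.34% lower. With 40 to 79 CpGs these shares were 1.81 and 1.27%, and with 80 or more 0.0607 and 0.0243%. The called gene was Dazl, with 48.5% against 8.72% in replicate 1 (Fisher's exact test, adjusted p = 9.64e-108) and 21.3% in replicate 2 (adjusted p = 9.08e-60). Within 500 bp of the TSS, or with a difference of 30 points, Dazl was no longer called. Without replicate 1 Sycp3 was called lower in REST knockout, where 968 of 17717 promoters were. Without replicate 2 Mael and Sycp1 were called lower, where 1067 of 15402 promoters were. Both settings called many more promoters lower than the main comparison, 202 of 15127. At the same CpGs, with REST knockout weighted by the coverage of each replicate, Dazl was at 11.7 against 8.72% and at 16.9 against 20.9%. In that comparison, by a Mantel-Haenszel test chosen after seeing the data, 0 of 10 genes were called, where 0.782% of 14967 promoters were called in each direction. At Sycp1 the difference from REST knockout was −30.9 points in replicate 1 and 2.47 in replicate 2, at Mael −25.0 and −9.23, and at Sycp3 −13.2 and −22.5. The test compares libraries and not conditions.

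**Figure D4:**
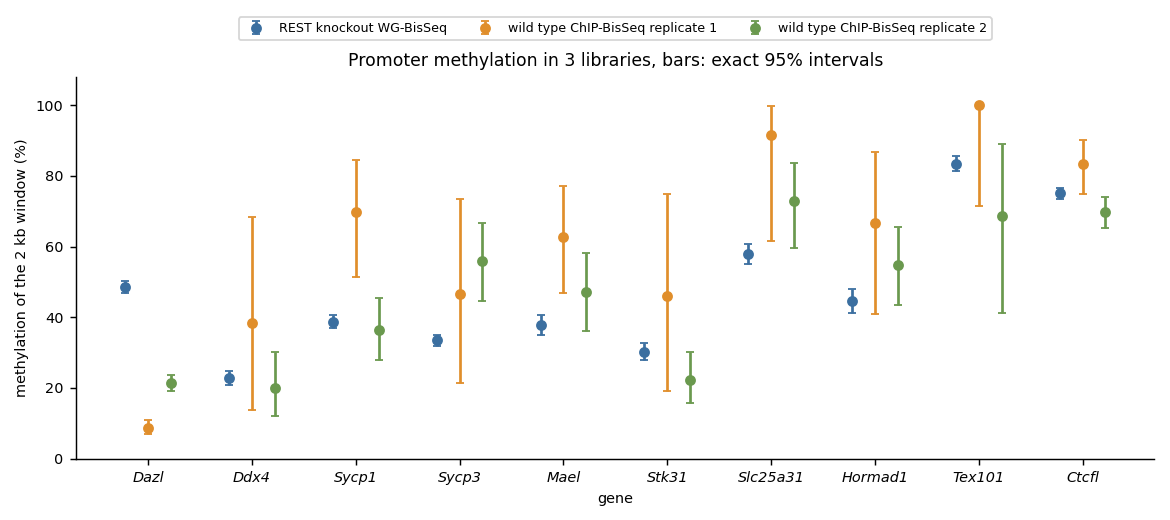
Methylation of the 2 kb window (percent, y axis) at the 10 genes (x axis) in REST knockout WG-BisSeq and both replicates of wild type ChIP-BisSeq, with bars for exact 95% intervals. The 3 libraries separate at Dazl, with 48.5, 8.72 and 21.3%, while the intervals at the other genes are wide in ChIP-BisSeq.

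Exact matches to CACGTG, which reads the same on both strands, were counted from 250 bp before to 50 bp after the TSS. They were present in 7 of the 10 promoters (70%), Ddx4, Sycp1, Sycp3, Mael, Stk31, Slc25a31 and Hormad1, against 7.78% of all protein-coding promoters, 9.35% of those with 40 to 79 CpGs and 10.8% of those with 80 or more. The word GCGGGAA, searched on both strands, was present in 4 (Ddx4, Sycp3, Slc25a31 and Hormad1), against 5.58% of all, and the same 4 held both words, against 0.568% of all. Of the wider list 23.6% held CACGTG and 10.9% the E2F word. Dazl, Tex101 and Ctcfl held neither word in this stretch, and Slc25a31, the third most methylated, held both. The words do not overlap each other, and a match is a description and not a bound site.

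The CpG at the centre of CACGTG was little methylated in REST knockout. Across the windows 12 such CpGs in 7 genes had a coverage of at least 10. They ranged from 0 to 40% with a median of 10.5%, and 9 were under 20%. In each of the 12 the value lay below that of the summed other CpGs within 100 bp, by a median of 18.2 points. CpGs in a further CACGTG were left out of these sums. The 12 are not independent, since hexamers close together share neighbours, as at Sycp3 (−46 and −25), Hormad1 (−57 and −20) and Dazl (+489 and +509). At Dazl +509 and Stk31 −120 the neighbours were under 20%, a range left out of the comparison over all promoters that follows. Over all promoters CpGs in CACGTG also lay lower, with a median difference of −9.74 points (n = 851, neighbours between 20 and 80%). The share of them below their neighbours was not computed. This comparison was chosen after values had been seen.

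At Sycp3 the hexamers at −46 and −25 had 3 and 4 of 39 observations methylated, 7.69 and 10.3%, where the CpGs around them had 32.0 and 29.3%. At Ddx4 the hexamer at −29 had 3 of 40 (7.50%) against 21.4% around it. At Hormad1 the hexamers at −57 and −20 had 3 of 14 and 2 of 22 methylated, 21.4 and 9.09%, against 38.7 and 38.3%. At Slc25a31 1 of 14 observations at −77 was methylated, against 37.6%. Sycp1 had 4 of 12 at −94, 33.3 against 50.8%, 3 of 28 at +613, 10.7 against 40.9%, and 4 of 10 at +716, 40 against 57.4%, the highest of the 12. Stk31 differed least, with 3 of 22 at −120, 13.6 against 18.6%. Below the minimal coverage were Mael −223 with 2 of 6, Sycp1 −287 with 5 of 9 and Ddx4 +946 with 5 of 5, and Ddx4 +697 had 0 observations.

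The test was made where the surrounding CpGs lay between 20 and 80%, which left out Dazl +509 and Stk31 −120. None of the 10 CpGs tested passed the adjustment, which ran over every tested CpG of all promoters. Fisher's exact test gave an unadjusted p under 0.05 at 7 of the 10, and the lowest adjusted p was 0.0589, at Sycp3 −46. With neighbours within 200 bp 2 of 10 passed, both at Sycp3, where 42 of 902 CpGs in CACGTG passed over all promoters. With at least 20 observations 3 of 6 did, at Dazl +489, Sycp3 −46 and Sycp1 +613, where 33 of 355 passed over all promoters. In the main setting 2.70% of 851 CpGs in CACGTG were called lower than their neighbours over all promoters, and 0 higher. Of 92935 CpGs in any word 0.567% were called lower and 0.551% higher. CpGs in CACGTG were left out of all neighbour sums, whereas those of other words were kept. Ranks of words are therefore not fully like for like. Among the 136 words of CpG with 2 bases on either side, AACGTT had the lowest median difference in REST knockout, −12.5 points. CACGTG had the fifth lowest, −9.74 points. By summed observations, in which the most covered CpGs weigh most, its difference from its neighbours was −5.99 points in REST knockout, the ninth lowest. In replicate 2 it was −4.35 points, also the ninth lowest. In replicate 1 the difference was positive, 4.79 points, at rank 53. Most of the 136 words had positive summed differences, from rank 29 on in REST knockout, 19 in replicate 1 and 17 in replicate 2. The lowest sum in REST knockout was that of ATCGAC, −53.9 points over 241250 observations, whereas its median difference was −4.30 points. The E2F word held 8 CpGs with that coverage across the windows, from 0 to 72.7% with a median of 46.7%, of which 4 lay above and 4 below their neighbours. Those above, at 43.5, 52.4, 72.7 and 57.1%, were the words of Ddx4, Sycp3, Slc25a31 and Hormad1 near the TSS. Those below were Dazl +523 (0 against 18.2%), Ddx4 +183 (10 against 14.9%), Sycp3 +781 (29.5 against 30.7%) and the word of Ctcfl (50 against 67.3%). By Fisher's exact test 0 of the 6 tested passed the adjustment, and the lowest adjusted p was 0.111.

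**Figure D5:**
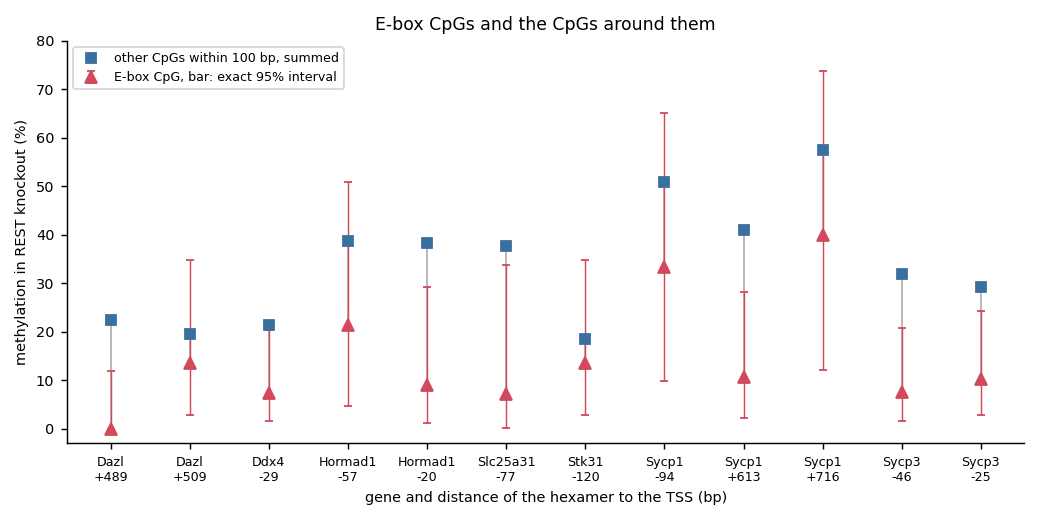
Methylation in REST knockout (percent, y axis) of the 12 E-box CpGs with a coverage of at least 10 (red triangles, bars for exact 95% intervals) and of the summed other CpGs within 100 bp outside any CACGTG (blue squares), by gene and distance of the hexamer to the TSS in bp (x axis). The triangle lies below the square in each of the 12, with intervals that reach the square at some.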

How the data were processed

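Bisulfite reads were aligned by the authors to mm9, and the submitters' processing notes name Bowtie 0.10.0.1. The deposited values are whole-number counts per CpG, total and methylated, without normalization; removal of PCR duplicates and merging of strands are not given in the sources used here. Each library has 1 file and listed CpGs had at least 1 observation, other CpGs being set to 0.

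Each count was placed on 1 of 21342492 nuclear CpGs of NCBIM37, and counts were summed within 1000 bp of each TSS of GENCODE vM1, with Python 3.11.15, NumPy 2.4.6, pandas 2.3.3, SciPy 1.17.1 and matplotlib 3.10.9. Promoters needed 10 observations per library. Depth was highest in REST knockout, at a median of 6 per listed CpG, against 3 and 2 in ChIP-BisSeq. Tests were two-sided Fisher's exact tests, Benjamini-Hochberg adjusted over all protein-coding promoters. Only the comparison of REST knockout with ChIP-BisSeq was also tried on simulated data. The simulation gave all CpGs of a promoter the same methylation and did not model uneven coverage of CpGs. Named genes were the 10 listed, with the 2 highest and 2 lowest of each wider group, Rest and 5 reference promoters. The members and lists were chosen with earlier results of these data known. Alternatives varied window, coverage, difference, TSS and background. Intervals cover counting error only, and intervals and tests treat each observation as independent. PCR copies, and CpGs read on the same molecule, are not independent. Intervals can therefore be too narrow and p-values too small.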

Additional observations from a re-analysis of the deposited data

How the results depend on the processing

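No paired analysis was possible, since the 1 REST knockout library and the ChIP-BisSeq libraries came from ES cells of different genotype and strain. The median methylation of the 10 genes in REST knockout, 41.7%, became 46.2% as an unweighted mean over CpGs. Of 71 values of single genes tried under other settings, 58 stayed within the interval of the main value. Some settings could not change a gene, since the first numbered transcript mostly has the same TSS. The unweighted mean over covered CpGs left the interval at all genes but Hormad1, Tex101 and Ctcfl. It put Ddx4 at 33.9%, Stk31 at 38.4% and Mael at 49.25%. Dazl reached 68.0% within 500 bp of its first start.

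The comparison of REST knockout with ChIP-BisSeq called 200 promoters higher and 202 lower. It gave 114 and 84 within 500 bp of the TSS, 331 and 403 within 2 kb, 522 and 411 with a difference of 10 points, 86 and 91 with 30 points, 106 and 77 at CpGs covered in all 3 libraries, 374 and 392 over all annotated genes, and 117 and 117 at the same CpGs by the Mantel-Haenszel test. With at least 20 observations 90 were lower. Without a replicate it gave 375 and 968 (replicate 1 left out) or 402 and 1067 (replicate 2 left out). Among the 10 genes 0 were then called higher within 500 bp (8 tested), with 30 points, at CpGs covered in all 3 libraries (7 tested) and in the Mantel-Haenszel test, where the main count was 1, Dazl. Lower calls, 0 in the main comparison, were 1 within 2 kb (Mael), 1 without replicate 1 (Sycp3) and 2 without replicate 2 (Mael and Sycp1). Over all promoters lower calls in these settings were 403 of 16906, 968 of 17717 and 1067 of 15402, against 202 of 15127. The cause of these changes was not tested, apart from the fewer genes tested. Counts for core against flanks and for the replicates stayed within 1.5 times over all alternatives tried. Within 200 bp of the TSS the median coverage of the 10 was 0.334 times the library mean in replicate 1, against 0.446. In replicate 2 it was 1.20 times, against 1.06. The gap between the replicates is too wide a measure to judge such shifts.

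Other settings for E-box CpGs were added after seeing the data. Over all promoters neighbours within 200 bp gave 42 lower calls of 902 and within 50 bp 13 of 743, against 23 of 851. At least 20 observations gave 33 of 355. Of the CpGs of the 10 genes, 2 were called lower within 200 bp (both of Sycp3), 0 within 50 bp, and 3 of 6 with at least 20 observations (Dazl +489, Sycp3 −46 and Sycp1 +613). Depth limits ChIP-BisSeq, in which 6 of the 10 promoters had under 20 observations in replicate 1.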
